A study of Mus musculus with 3 samples.

Results

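The barcodes described here were the shallow, mitochondria-poor ones of stimulated mouse CD4+ T cell libraries. They were chosen by 2 measured values, namely fewer than 4055.67 UMIs (unique molecular identifiers, each counted as 1 captured RNA molecule) and less than 1.5% of those UMIs on the mitochondrially encoded mt- genes. The depth limit is the median of 12167 UMIs per stimulated WT barcode, after the study's filter, divided by 3. The rule found 204 of 10320 barcodes in stimulated WT (1.98%, exact Clopper-Pearson 95% interval 1.72 to 2.26%). In stimulated IFT20-KO it found 837 of 13932 (6.01%, interval 5.62 to 6.42%). Together these were 1041 of the 24252 stimulated barcodes and of 32505 in the whole series. The reference within each library was its barcodes of 6000 or more UMIs with mt- genes under 4%, 7399 in WT and 6776 in IFT20-KO. The cells came from the spleens of C57BL/6 mice, either Ift20 f/f (WT) or Ift20 f/f CD4 cre (IFT20-KO), in which Cre is driven by the Cd4 promoter and so also acts in other cells that have used that promoter. The 2 stimulated cultures received anti-CD3 and anti-CD28 at 1 μg/mL each for 24 h, an unstimulated WT library was the third, and 7AAD-CD3+CD4+ cells were sorted. Each condition was 1 library, so that no difference has a replicate check, no test was made, and every interval below covers counting error only.

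A droplet library gives a barcode to each droplet, and what the droplet held has to be read from its RNA. Transcripts of the mitochondrial genome stay inside mitochondria, most messenger RNA lies in the cytoplasm, and ribosomal RNA precursors and some long noncoding RNAs such as Malat1 are retained in the nucleus. Replication-dependent histone mRNAs are made in S phase and end in a conserved stem-loop instead of a poly(A) tail, whereas replication-independent histones such as H3f3b have ordinary polyadenylated mRNAs. Each T cell assembles 1 productive T cell receptor beta chain from a single V segment (Trbv genes), so that the Trbv transcripts of a single cell mostly name the same segment.

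The low-UMI, mitochondria-poor barcodes were shallow, as the rule required. In stimulated WT they held 709 to 4038 UMIs with a median of 930, against a median of 14086 in the reference, and in stimulated IFT20-KO 1493 to 4054 with a median of 2090, against 12022. The shallowest barcode of the WT file had 709 UMIs and that of the IFT20-KO file 1493, so that the lower edge of the population was set by different depths in the 2 libraries, which bears on its share of the barcodes. At 1500 UMIs or more, a depth both files contain, there were 61 of 10320 in WT and 825 of 13932 in IFT20-KO (0.591% and 5.92%). Together they held 293593 UMIs in WT and 1975758 in IFT20-KO, 0.249% and 1.86% of their libraries. Levels are given as CPM, the UMIs of a gene per 1000000 UMIs of the population. A level of 20 CPM thus rested on 5.87 UMIs in WT and on 39.5 in IFT20-KO. Barcode sequences were also compared between the libraries: 207 were common to the 2 stimulated files, and 8 of the 204 and 32 of the 837 barcodes (3.92% and 3.82%) recurred in at least 1 other library, as did 3.12% and 2.26% of the reference barcodes.

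The mitochondrial share was not spread evenly below 1.5%. It was under 0.25% in 141 of the 204 WT barcodes and in 579 of the 837 IFT20-KO barcodes (69.1% and 69.2%), and 86 and 210 of them had no mt- UMI at all. The median was 0.0829% in WT and 0.0660% in IFT20-KO, with 1.25% and 1.06% in the reference. The remaining 63 and 258 barcodes had medians of 0.928% and 0.902%, close to the reference. These shares were used by the rule and are given as a description, and the division at 0.25% was made after the values were seen. Near the thresholds, in IFT20-KO, rRNA-derived genes took 1.12% of UMIs in the 44 barcodes less than 400 UMIs below the depth limit and 1.32% in the 36 less than 400 above it, and 1.29% in the 60 within 0.25 percentage points below the mt- limit against 1.23% in the 49 within 0.25 above it. Replication-dependent histones stood at 618 and 783 CPM across the depth limit and at 672 and 482 across the mt- limit, and Malat1 at 2330 and 2990 across the depth limit. The same 4 windows held 11, 7, 8 and 11 barcodes in WT, with 0.910%, 0.814%, 1.08% and 2.86%.

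**Figure D1:**
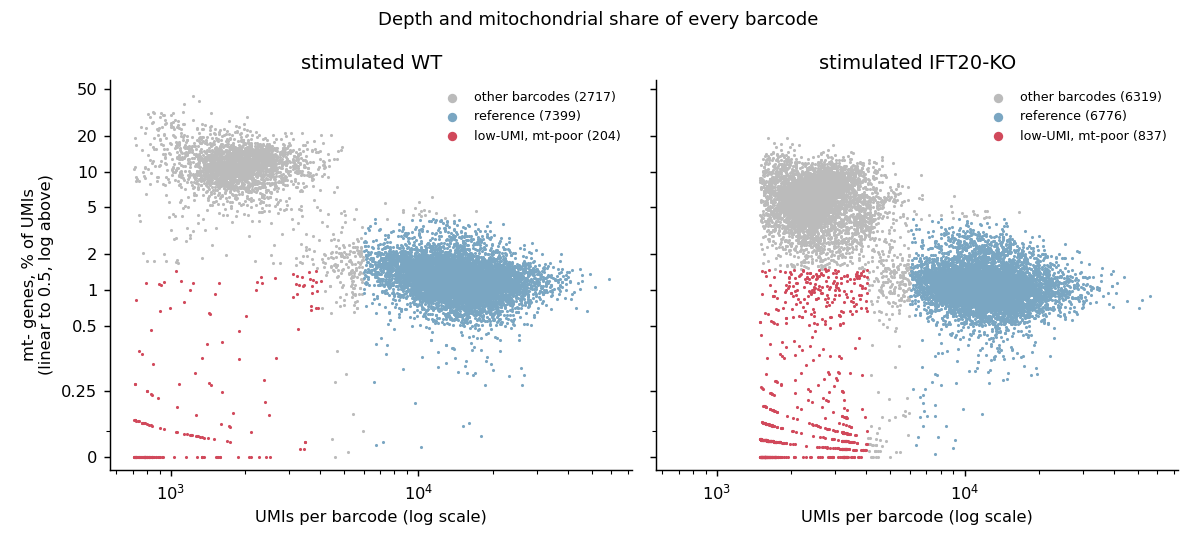
Each point is a barcode, with its UMIs on a log axis and the percent of UMIs on mt- genes on an axis that is linear to 0.5 and logarithmic above. Of the 204 and 837 selected barcodes (red), 141 and 579 lie under 0.25%, along the bottom edge. The other 63 and 258 reach up to the 1.5% limit, where the rule divides them from the other shallow barcodes (part of the grey). The reference is in blue.

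T cell transcripts were present in the selected barcodes. Cd3d, a chain of the T cell receptor complex, stood at 739 CPM in the selected WT barcodes and 903 in the reference, and at 847 and 926 in IFT20-KO. Trac, the receptor alpha constant region, stood at 184 against 258 in WT and 212 against 254 in IFT20-KO. The 17 T cell identity genes summed to 5971 against 7084 CPM in WT (log2 ratio -0.25, interval -0.32 to -0.18) and to 7250 against 6967 in IFT20-KO (0.06, interval 0.03 to 0.08), small in both. The sign in IFT20-KO turned under 5 alternatives, among them median-ratio scaling (-0.17) and barcodes under 0.25% mt- (-0.16). Cd4 itself was at 85.2 against 102 in WT and 229 against 125 in IFT20-KO.

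Markers of other cells were near 0. All 7 B cell markers had no UMI in the selected WT barcodes and 5 of 7 had none in IFT20-KO, where the list summed to 1.52 CPM against 1.46 in the reference. The 6 erythroid markers were at 0 in both, and the 4 platelet markers at 0 in WT and at 0.506 CPM in IFT20-KO. The 10 myeloid markers summed to 92.0 against 78.2 in WT and 88.6 against 83.0 in IFT20-KO, nearly all of it from Cst3, a widely expressed protease inhibitor, while Lyz2 was at 0. The 7 NK cell markers summed to 23.8 against 8.03 in WT and 11.1 against 6.15 in IFT20-KO, led by Eomes and Nkg7. Cd8a and Cd8b1 together were at 6.81 against 9.03 and 10.6 against 10.7, and the gamma-delta constant regions at 0 against 0.484 and 0.506 against 1.17. The low-UMI, mitochondria-poor label is the rule itself and names no cell type. The marker genes given with it were Gm42418, Gm26917, AY036118, Lars2 and Hist1h1b, and all 5 were higher than in the reference in both libraries.

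Ift20, the targeted gene, encodes a protein of intraflagellar transport. It had 26 UMIs in the selected WT barcodes (88.6 CPM, with 77.1 in the reference) and 7 in the selected IFT20-KO barcodes (3.54, with 6.80 in the reference). The unstimulated WT library had 64.3. The selected barcodes thus followed the genotype of their library.

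The rRNA-derived genes separated the selected barcodes most clearly from the reference. Together Gm42418, Gm26917, AY036118 and Lars2 took 46633 CPM in WT against 4706 in the reference (log2 ratio 3.31, interval 3.28 to 3.33) and 19533 against 3719 in IFT20-KO (2.39, interval 2.38 to 2.41). The 4 genes were named with results of these libraries known, so their direction is no independent evidence. Gm42418 lies on chromosome 17 of GRCm38 (chr17:39846958-39848788, plus strand, 1 exon), where RefSeq places a pseudogene related to small-subunit rRNA, Rn18s-rs5. AY036118 (chr17:39847113-39848035) is annotated on the opposite strand within it. Of its 899 stretches of 25 bases, 899 match the reverse complement of Gm42418, so that reads of AY036118 can be told from those of Gm42418 only by strand. Gm26917 (chr17:39843013-39846341, plus strand, 1 exon) ends 12 bases before that RefSeq pseudogene begins, upstream in the same direction. Lars2, the mitochondrial leucyl-tRNA synthetase gene, lies elsewhere (chr9:123366927-123462666, 21 exons in its longest transcript) and shares no stretch of 25 bases with the other 3. The term rRNA-derived is used here as the name of the group of 4. Whether the reads of Lars2 or Gm26917 come from rRNA was not tested.

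Gm42418 was the most abundant of them, with 33407 CPM in the selected WT barcodes against 4148 in the reference and 16704 against 3196 in IFT20-KO. It was detected in all 204 and all 837 barcodes. Gm26917 rose furthest in WT, to 11019 against 253 CPM, and stood at 1967 against 255 in IFT20-KO. Lars2 was at 1652 against 213 and 570 against 185, and AY036118 at 555 against 91.2 and 291 against 82.3. The levels of the 4 genes thus differed less between the libraries in the reference than in the selected barcodes, where all 4 were higher in WT. Among the other barcodes under the depth limit all 4 were higher in WT as well, Gm42418 at 20380 CPM against 10345 in IFT20-KO.

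A few barcodes carried much of the WT value. In both libraries 22 selected barcodes, 10.8% of them in WT and 2.63% in IFT20-KO, had 10% or more of their UMIs on the 4 genes, whereas 1 reference barcode in WT and 0 in IFT20-KO did. Among the other barcodes under the depth limit, 25 in WT and 2 in IFT20-KO did. In WT those 22 held 83.3% of the Gm26917 UMIs, 63.1% of the Lars2 UMIs and 54.4% of the replication-dependent histone UMIs of the selected barcodes, and in IFT20-KO 40.3%, 17.3% and 6.87%. Without them the summed log2 ratio of the rRNA-derived genes was 2.70 in WT and 2.21 in IFT20-KO, and that of Gm26917 was 3.04 and 2.23 in place of 5.44 and 2.95. The typical barcode was also raised: the median share of the 4 genes was 4.15% in WT (quartiles 2.84 and 5.64%) against 0.373% in the reference, and 1.42% (quartiles 1.07 and 2.0%) against 0.297% in IFT20-KO.

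Replication-dependent histone transcripts were higher too. The 67 genes of the table summed to 1076 CPM in WT against 150 in the reference (log2 ratio 2.85, interval 2.68 to 3.01) and to 817 against 218 in IFT20-KO (1.91, interval 1.83 to 1.98). Of the 67 genes, 24 had no UMI in the selected WT barcodes and 16 none in those of IFT20-KO. The 11 and 5 genes with a mean of at least 20 CPM over selected and reference barcodes were all higher, beside 58.5% and 66.3% of all genes at that level, and this minimum favours genes that are high in the selected barcodes. Without the 22 barcodes richest in rRNA-derived UMIs the log2 ratio was 1.89 in WT and 1.83 in IFT20-KO, so that most of the gap between the libraries was not seen without those 22.

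The sums of all 5 histone classes moved in this direction. The linker histones H1 were at 378 against 59.9 CPM in WT and at 383 against 96.0 in IFT20-KO, H2A at 157 against 19.0 and 146 against 32.3, H2B at 129 against 22.8 and 68.3 against 28.2, H3 at 143 against 20.4 and 67.8 against 26.5, and H4 at 269 against 27.5 and 152 against 34.9. The WT sum of H2A rested on 46 UMIs, 24 of them from Hist2h2ac, and 6 of 13 H2A genes counted were higher. Hist1h1b, a linker histone (chr13:21779883-21780625), had 23 UMIs in WT (78.3 CPM against 6.51) and 224 in IFT20-KO (113 against 17.1). Hist1h1e had 57 and 389 UMIs, at 194 against 32.5 and 197 against 52.5 CPM. Hist1h4d, an H4 gene, was at 61.3 against 7.93 and 104 against 14.6, and Hist2h2ac, an H2A gene, at 81.8 against 7.66 and 76.4 against 14.6. The replication-independent histones did not share this: they summed to 4721 against 4689 CPM in WT (log2 ratio 0.01, interval -0.07 to 0.09) and 4556 against 4866 in IFT20-KO (-0.10, interval -0.13 to -0.06).

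The feature that sets the first class apart can be read in the transcripts. A script searched the annotated transcripts (GENCODE M21, sense strand) for the consensus of the histone 3′ stem-loop and found it in 46 of the 67 genes, against 77 of 30934 genes of the table with a transcript sequence (0.249%). Its copies in 4 of the raised genes are shown because this end replaces the poly(A) tail, with the matched stem-loop in capitals and 5 bases on each side in lower case, 5′ to 3′ on the transcript's strand. The annotated transcripts continue beyond the stem-loop by 770 bases in Hist1h4d, 57 in Hist2h2ac, 1153 in Hist1h1e and 369 in Hist1h3e. The matches lie at chr13:23581950-23581965 (plus), chr3:96220418-96220433 (minus), chr13:23621782-23621797 (minus) and chr13:23561903-23561918 (minus) of GRCm38.
Hist1h4d: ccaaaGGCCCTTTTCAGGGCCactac
Hist2h2ac: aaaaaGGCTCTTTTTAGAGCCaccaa
Hist1h1e: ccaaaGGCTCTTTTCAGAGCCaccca
Hist1h3e: aaaacGGCTCTTTTAAGAGCCacctc
The 46 genes with a match were at 879 against 133 CPM in WT and 640 against 186 in IFT20-KO, and the 21 without, which include Hist1h1b, at 198 against 16.4 and 178 against 32.2. Both sets were higher, and a missing match says only that these letters are not in the annotated transcript.

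Other shallow barcodes did not show the same composition. The 2509 WT and 5851 IFT20-KO barcodes under the depth limit with mt- genes at 1.5% or more had 25328 and 13022 CPM of rRNA-derived transcripts, above the reference but below the selected barcodes (log2 ratio of selected over these barcodes 0.88 and 0.58). Their replication-dependent histones were at 309 and 542 (log2 ratio 1.80 and 0.59). They differed in the other direction for Malat1, the most abundant nuclear long noncoding RNA, which was at 9088 and 6481 CPM there, at 3679 and 3369 in the selected barcodes and at 1126 and 1222 in the reference. Kcnq1ot1 followed the same order, at 766 and 550, 133 and 135, and 41.3 and 48.7. Cytosolic ribosomal protein mRNAs took 132145 and 194978 CPM in the other shallow barcodes, 279142 and 269982 in the selected ones and 314884 and 324690 in the reference, so that in this class of mRNA the selected barcodes stood near the reference.

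Along the mitochondrial share the extreme lay at its lower end. Among WT barcodes under the depth limit, rRNA-derived transcripts were at 65718 CPM below 0.25% mt-, at 32185 from 0.25 to 1% and at 17615 from 1 to 1.5%, and in IFT20-KO at 22188, 15881 and 12359. The order was not continued above 1.5% in WT, where the 25 barcodes of 2.5 to 4% stood at 43184, nor in IFT20-KO, where the 323 barcodes of 10% or more stood at 19459. Histones were at 1605, 686 and 262 in WT and at 924, 599 and 627 in IFT20-KO. Barcodes under 0.25% mt- also differed from the other selected barcodes of IFT20-KO in ER folding and translocation genes (5321 against 9640 CPM, with 5168 in the reference), in Malat1 (2531 against 4991) and in ribosomal protein mRNAs (284939 against 241042). In WT the ER folding genes were at 4221 against 5159, the ribosomal protein mRNAs at 272847 against 286314 and Malat1 at 3908 against 3418, so that ribosomal protein mRNAs and Malat1 did not share the direction of IFT20-KO.

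**Figure D2:**
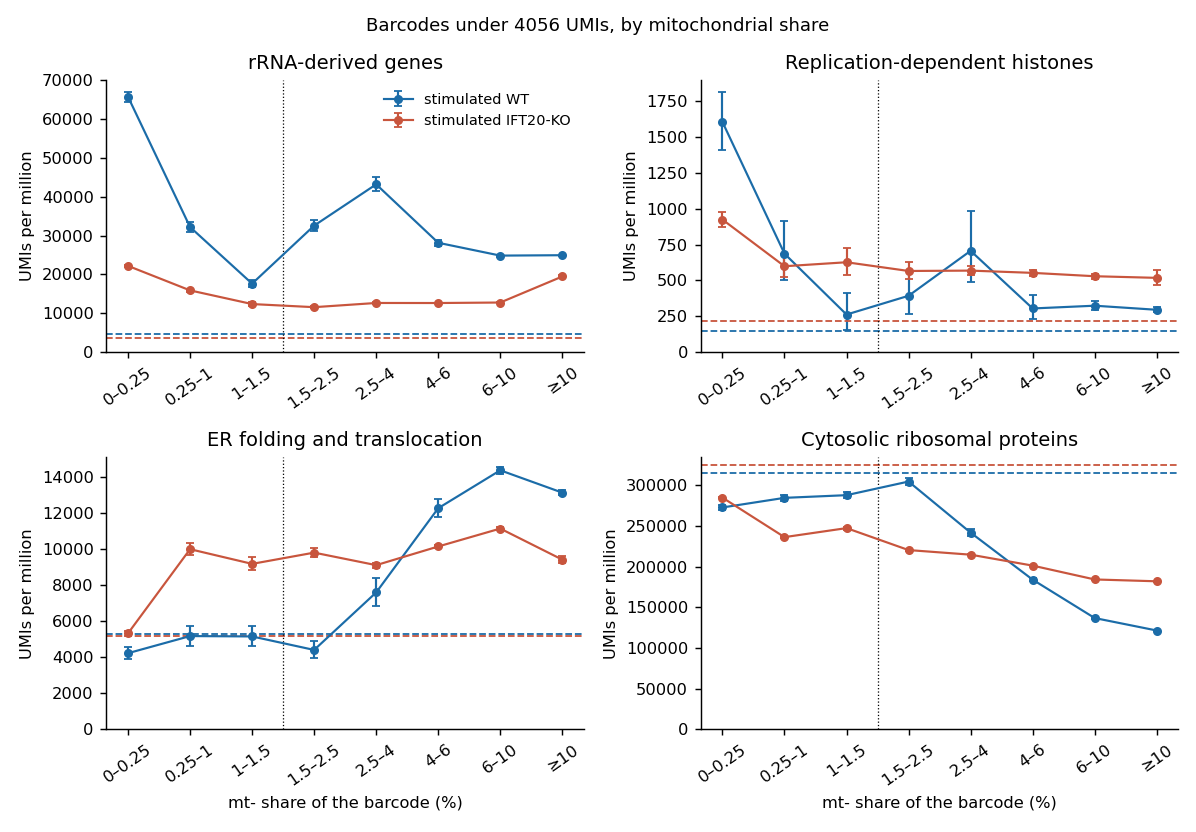
CPM of 4 gene lists in barcodes under the depth limit, binned by their mt- share (bins of 20 or more barcodes), with exact Poisson 95% intervals; dashed lines are the reference of each library and the dotted line is the 1.5% limit. The rRNA-derived level peaks below 0.25% at 65718 in WT and 22188 in IFT20-KO, and ER folding in IFT20-KO sits at 5321 there, near the reference line, and between 9099 and 11127 in all bins above.

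The segments of the T cell receptor gave a measure that neither threshold had used. In barcodes with at least 2 Trbv UMIs, 2 were drawn at random and compared. They named the same segment in 5319 of 7088 reference barcodes of WT (75.04%, exact interval 74.0 to 76.0%). In IFT20-KO they did so in 4288 of 6606 (64.9%, interval 63.7 to 66.1%). In the selected barcodes they did so in 22 of 69 in WT (31.9%, interval 21.2 to 44.2%) and in 130 of 601 in IFT20-KO (21.6%, interval 18.4 to 25.1%). Pairs of UMIs taken from different barcodes of the same library would match in 8.77% and 8.85% of cases.

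The division at 0.25% mt- ran through this measure. Below it, 8 of 40 WT barcodes (20%, interval 9.05 to 35.6%) and 51 of 390 IFT20-KO barcodes (13.1%, interval 9.89 to 16.8%) had matching segments. Over all pairs of UMIs within a barcode the mean there was 15.25% and 12.3%. At 0.25% or more, 14 of 29 (48.3%, interval 29.4 to 67.5%) and 79 of 211 (37.4%, interval 30.9 to 44.3%) matched. The latter was near the other shallow barcodes of IFT20-KO, at 1781 of 4868 (36.6%, interval 35.2 to 38.0%), and those of WT were at 927 of 1671 (55.5%, interval 53.1 to 57.9%). The drawn pair had the same size in every barcode, and reference barcodes of 6000 to under 8000 UMIs, the shallowest of the reference, matched in 72.7% and 67.5%. No doublets had been removed, and the part of mixed or ambient RNA in these values was not tested. The alpha chain segments (Trav), fewer in UMIs, ran the same way: 0 of 11 and 18 of 127 matched below 0.25% mt- (14.2% in IFT20-KO, interval 8.62 to 21.5%), and 3536 of 5355 and 2866 of 5116 in the reference (66.0% and 56.0%). As background, a T cell can rearrange both of its alpha alleles.

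**Figure D3:**
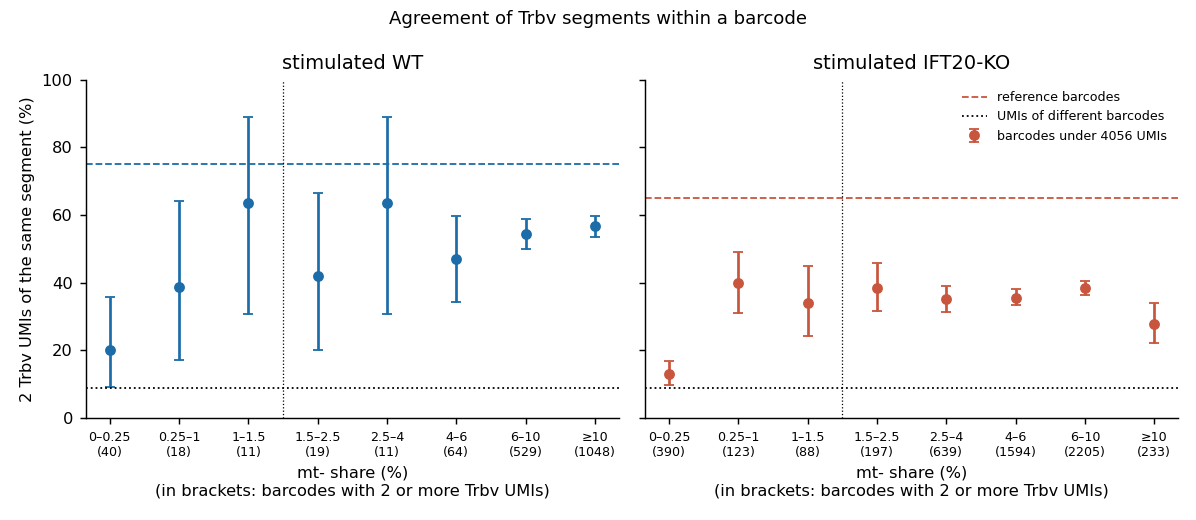
Percent of barcodes under the depth limit whose 2 drawn Trbv UMIs name the same segment, by mt- share, with exact Clopper-Pearson 95% intervals; dashed lines are the reference and dotted horizontal lines are pairs from different barcodes (8.77% and 8.85%). Below 0.25% mt- the values are 20% in WT and 13.1% in IFT20-KO, and in IFT20-KO all other bins lie between 27.9 and 39.8%.

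Across all genes the selected and reference barcodes were compared one gene at a time. A fold of 2 was used as the limit, over genes with a mean of at least 20 CPM over selected and reference barcodes, mt- genes left out. In WT 9.06% of 5289 genes were 2-fold or more higher (479 genes) and 1.23% were 2-fold or more lower (65 genes), and in IFT20-KO 8.28% of 5456 were higher (452 genes) and 0.0367% lower (2 genes). Of 5036 genes that could be read in both, 3.26% were 2-fold higher in both libraries (164 genes) and 0 genes (0%) were 2-fold lower in both. The level minimum was taken over the mean of both populations, so that a gene with a low reference level entered only where it was high in the selected barcodes, and the counts in each direction are a description. With a minimum of 5 CPM the 164 genes became 454, and with 100 CPM they became 11. The median log2 ratio over the tested genes was 0.12 in WT and 0.20 in IFT20-KO. Of the 164 genes, 154 had intervals above 1-fold in both libraries and 20 had intervals above 2-fold in both. Those 20, listed after their values were seen, were the 4 rRNA-derived genes, the histones Hist1h1b, Hist1h1e, Hist1h3e, Hist1h4d and Hist2h2ac, the noncoding RNAs Malat1, Kcnq1ot1 and Pvt1, and Nr4a3, Gimap8, Lrig1, Cdkn1b, Zfp507, Zfp646, Nufip2 and Ttc7.

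The 12 highest genes by the ratio nearer to 0 of the 2 libraries were Gm26917, Hist1h4d, Hist1h1b, Hist2h2ac, Gm42418, Hist1h1e, Gm42047, AY036118, Ttc7, Lars2, Klhl9 and Adnp. Ttc7 was at 44.3 against 9.97 CPM in WT and 43.5 against 13.7 in IFT20-KO. Adnp, a homeodomain zinc finger protein, was at 40.9 against 13.8 and 57.2 against 16.4. In the other shallow barcodes Ttc7 was at 49.7 and 47.3 and Adnp at 58.0 and 57.5, so that neither was particular to the selected ones. Gm42047 was at 73.7 and 50.9 there, against 34.1 and 32.4 in the selected barcodes. Gm26917 in IFT20-KO was at 2238 there against 1967. The rest of the 12 were lower there than in the selected barcodes in both libraries. Klhl9, a ubiquitin ligase adaptor, rested on 11 UMIs in WT, and its log2 ratio there was 1.58 and turned to -0.03 when only barcodes of 1500 UMIs or more were used.

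The 12 lowest genes were Srsf9, Gm26825, Mogs, Rnf220, Ube2m, Abhd17a, Gm45716, Klf13, Pabpn1, Ap3s1, Nadk and Rrp9. None was 2-fold lower in both. Srsf9, a splicing factor, was at 30.7 against 59.8 CPM in WT and 33.4 against 57.9 in IFT20-KO, and Gm26825, a noncoding RNA, at 47.7 against 77.6 and 27.8 against 80.6. Rnf220, Ube2m, Abhd17a, Klf13, Pabpn1, Ap3s1, Nadk and Gm26825 had intervals that reached 0 in WT, where each rested on 5 to 19 UMIs. Mogs, an enzyme of N-glycan trimming in the ER, was at 13.6 against 35.9 and 17.7 against 28.4.

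**Figure D4:**
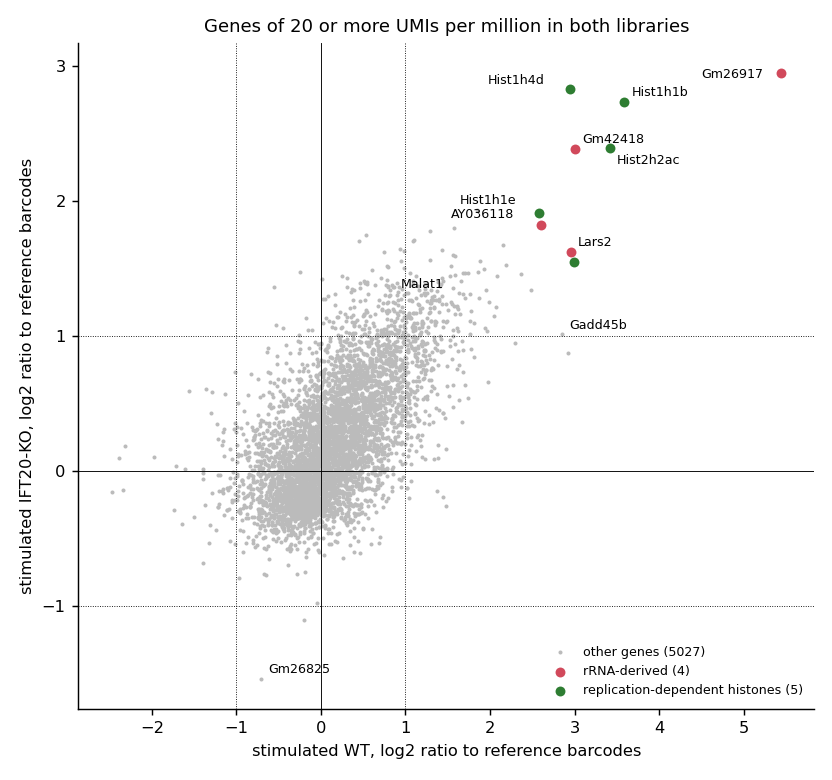
Each point is 1 of 5036 genes, with its log2 ratio of selected over reference barcodes in stimulated WT and in stimulated IFT20-KO; dotted lines mark 2-fold. The 4 rRNA-derived genes (red) and 5 histone genes (green) stand at the upper right, and no gene lies beyond -1 on both axes.

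Genes raised 2-fold in both libraries had long transcripts. Their median longest transcript was 5645 bases against 3042 for all 5036 genes, and their median gene length 55343 against 20357 bases (GENCODE M21). The level minimum favoured genes that were high in the selected barcodes, so that these lengths are a description. The median log2 ratio climbed with transcript length, from -0.17 in WT and -0.18 in IFT20-KO for 776 genes under 1500 bases to 0.67 and 0.77 for 255 genes of 8000 bases or more. The other shallow barcodes showed a steeper relation, from -0.98 and -0.56 to 1.62 and 1.37, so that the lean to long transcripts was present in both kinds of shallow barcode and smaller in the selected ones.

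Several groups of cytoplasmic and mitochondrial protein mRNAs were slightly lower than in the reference. Over all tested genes 58.5% were higher in WT and 66.3% in IFT20-KO. Of 82 cytosolic ribosomal protein genes past the level minimum, 71 were lower in WT and 81 in IFT20-KO (median log2 ratio -0.18 and -0.26). Of 83 nuclear-encoded respiratory chain genes 64 and 79 were lower (median -0.23 in both), and of 77 mitochondrial ribosomal protein genes 61 and 66 (median -0.25 and -0.16). The mt- transcripts, whose share the rule had set, were at 4591 against 12813 CPM in WT and 3434 against 11358 in IFT20-KO. Glycolysis enzymes summed to 8171 against 10448 and 7594 against 9545, with Ldha, the lactate dehydrogenase A chain, at 1638 against 2282 and 1458 against 2092. Actin cytoskeleton genes were lower in 15 and 16 of 23. None of the nuclear-encoded genes in these groups was 2-fold lower in IFT20-KO, and 3 mitochondrial ribosomal protein genes were in WT, beside 0.0367% and 1.23% of all tested genes. Against reference barcodes of 6000 to under 8000 UMIs the WT log2 ratio turned to 0.0125 for glycolysis and to 0.0477 for mitochondrial ribosomal proteins. The other shallow barcodes were lower still in these nuclear-encoded groups. Respiratory chain genes were at 13335 and 17786 CPM there, against 24180 and 23472 in the selected barcodes. Glycolysis enzymes were at 5182 and 5939 there, and actin cytoskeleton genes at 23658 and 29970 against 39878 and 40045.

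Naive T cell genes summed to 2704 against 2125 CPM in WT and 2841 against 2124 in IFT20-KO (log2 ratio 0.35 and 0.42), with 11 of 12 genes higher in each. The other shallow barcodes were higher still, at 5001 CPM in WT and 4046 in IFT20-KO. Il7r, the interleukin 7 receptor alpha chain, was at 20.4 against 4.06 and 15.7 against 3.19. Its mean lay under the level minimum of 20 CPM in each library, so that Il7r was not among those 12, and its WT value rested on few UMIs. Klf2, a transcription factor of quiescent T cells, was at 204 against 107 and 158 against 89.2. Against reference barcodes of 6000 to under 8000 UMIs the naive list turned to -0.30 and -0.03. Activation genes were higher in 15 of 23 in WT and 17 of 22 in IFT20-KO, with Cd69 at 426 against 274 and 310 against 212 and Il2ra at 238 against 175 and 285 against 170, while Il2 was at 47.7 against 119 and 50.6 against 66.7. The activation list summed to 3546 and 3526 CPM in the selected barcodes, below the 6158 and 4723 of the other shallow barcodes. In WT barcodes under 0.25% mt- the summed log2 ratio of the activation list turned from 0.20 to -0.0321. Of the G2/M genes 14 of 20 were higher in WT and 18 of 21 in IFT20-KO, and of the S phase genes 21 of 33 and 29 of 35, beside 58.5% and 66.3% of all tested genes. The S phase list in WT had a summed log2 ratio of 0.09 (interval -0.0027 to 0.18) and a median of 0.14, near the 0.12 of all tested genes, and in IFT20-KO a sum of 0.31 (interval 0.28 to 0.34) and a median of 0.37, with 0.20 over all tested genes. S phase genes summed to 3168 and 4168 CPM in the selected barcodes and to 3601 and 4263 in the other shallow ones. For G2/M genes the sums were 2425 and 2810 against 2309 and 2703. Top2a, the topoisomerase of chromosome separation, was at 88.6 against 36.2 and 101 against 43.6.

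The remaining groups were mixed, and several of their counts lay near the 58.5% and 66.3% of all tested genes that were higher in WT and IFT20-KO. Translation factors were lower in 14 of 21 genes in WT and 12 of 21 in IFT20-KO, and splicing factors higher in 24 and 30 of 44. Apoptosis and p53 response genes were higher in 14 of 17 in WT and 10 of 16 in IFT20-KO. Among them Gadd45b, a stress-induced gene, was at 303 against 41.9 CPM in WT and 54.7 against 27.1 in IFT20-KO, whereas Bax, an effector of cell death, was at 266 against 325 and 242 against 304. Stress and immediate-early genes were higher in 12 of 15 genes in WT and 4 of 11 in IFT20-KO (summed log2 ratio 0.25 and -0.04), with the transcription factor gene Jun at 98.8 against 11.5 and 24.8 against 10.1 and Junb at 538 against 238 and 242 against 213. The ER folding and translocation genes were higher in 5 of 25 in WT and 18 of 25 in IFT20-KO (summed log2 ratio -0.18 and 0.39). The snoRNA host genes, 3 of which passed the level minimum, were higher in 2 of 3 in each library.

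**Figure D5:**
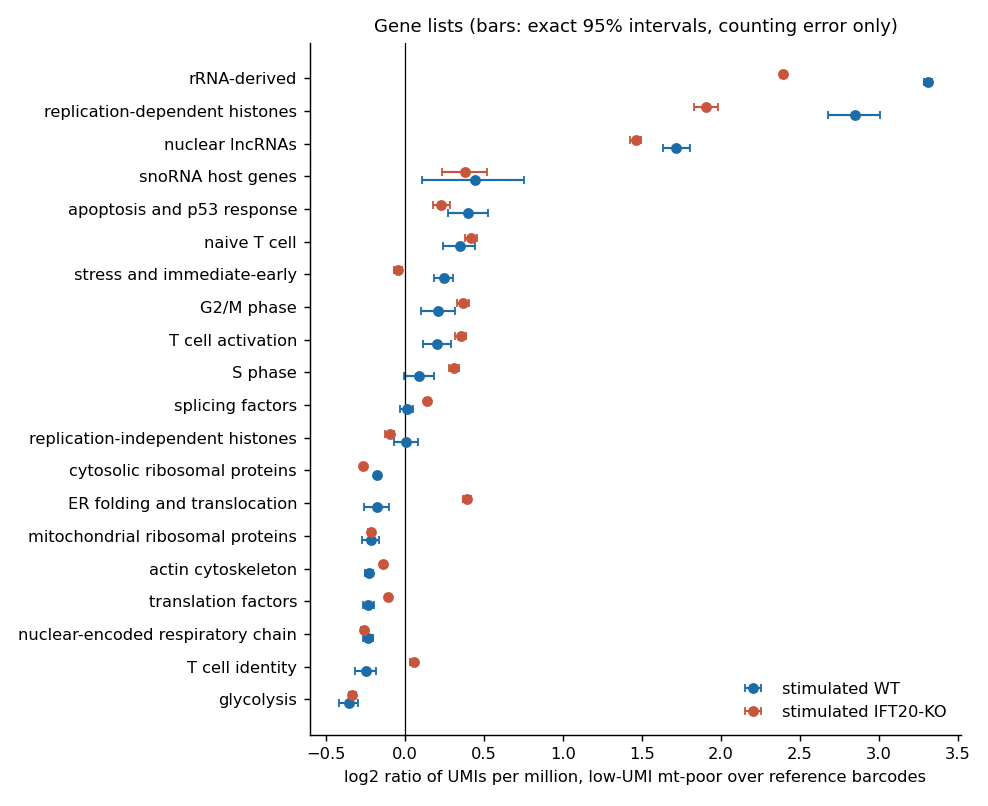
Summed log2 ratio of 20 gene lists, selected over reference barcodes, for stimulated WT (blue) and stimulated IFT20-KO (red), with exact binomial 95% intervals; the mt- genes, which the rule used, the markers of other cell types, the Y-linked genes and Ift20 are not drawn. The rRNA-derived, replication-dependent histone and nuclear lncRNA lists lie between 1.46 and 3.31, and the other 17 lie between -0.35 and 0.44.

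The genotypes were compared side by side, each by 1 library. Among the selected barcodes rRNA-derived transcripts were lower in IFT20-KO than in WT (log2 ratio -1.26, interval -1.28 to -1.23), and in the reference the ratio was -0.34. The other shallow barcodes also had less in IFT20-KO, 13022 CPM against 25328 in WT, so that this order was not particular to the selected ones. With selected barcodes of 1500 UMIs or more the log2 ratio was -0.97 over 61 WT and 825 IFT20-KO barcodes, and with those of them under 0.25% mt- it was -1.95 over 25 and 569. Histones were at -0.40 in the selected barcodes and at -1.48 in the last of these, with 0.54 in the reference. Without the 22 barcodes richest in rRNA-derived UMIs in each library the histones of the selected barcodes were at 556 CPM in WT and 778 in IFT20-KO, so that the lower level of IFT20-KO was not seen without them, 10.8% of the selected barcodes in WT and 2.63% in IFT20-KO. ER folding and translocation genes were higher in IFT20-KO (0.54, interval 0.46 to 0.63) with -0.03 in the reference. Hspa5, the main ER chaperone, was at 443 CPM in WT and 839 in IFT20-KO, with 449 and 437 in the reference, and Canx, the lectin chaperone calnexin, at 187 and 435, with 208 and 210. The ER folding list was at 5159 in WT and 9640 in IFT20-KO in selected barcodes of 0.25% mt- or more. Under 0.25% it was at 4221 and 5321. The other shallow barcodes had the opposite order, at 13245 in WT and 10402 in IFT20-KO.

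Single genes were ranked by IFT20-KO over WT among the 5036 genes with a mean of at least 20 CPM over selected and reference barcodes in each library, a minimum that Ift20 and Jun did not pass in IFT20-KO (log2 ratio -4.64 and -1.99). The 5 highest were Smyd3, Lrrc41, Srpk2, Acad9 and Rrm2, each with 2 to 4 UMIs in WT. The 5 lowest of these genes were Ly6a, Gm26917, Gadd45b, Ier5 and Plk2. The place of Gm26917 rested largely on the 22 barcodes richest in rRNA-derived UMIs in each library. Without them it was at 2080 CPM in WT and 1200 in IFT20-KO, in place of 11019 and 1967. Ly6a, the surface protein Sca-1, was at 463 CPM in WT and 46.1 in IFT20-KO, and the reference showed a like difference (325 and 43.7). The other 4 showed it in the selected barcodes: Gadd45b was at 303 and 54.7 with 41.9 and 27.1 in the reference, Ier5 at 249 and 70.9 with 91.3 and 80.9, and Plk2, a stress-inducible kinase, at 119 and 34.4 with 15.7 and 18.7.

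The unstimulated WT library had 213 barcodes under the same rule (2.58% of 8253), and they were of another kind. Their median was 3357 UMIs and their median mt- share 1.30%, only 4 of them were under 0.25%, and 1 had no mt- UMI. They had 11712 CPM of rRNA-derived transcripts against 12071 over the whole unstimulated library, 223 against 204 of replication-dependent histones, and matching Trbv segments in 156 of 188 (83.0%, interval 76.8 to 88.1%).

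Genes per barcode were compared at equal depth. Thinned to 700 UMIs each, the selected barcodes had a median of 463 genes in WT and 470 in IFT20-KO, the reference 444 in both, and the other shallow barcodes 499 and 508. At 1400 UMIs, which left out 137 of the 204 WT barcodes, the medians were 751 and 802, 747 in the reference of each, and 882 and 883. Unthinned, the selected barcodes had 587 and 1187 genes, against 3297 and 3075 in the reference. At a given depth the selected barcodes thus spread their UMIs over slightly more genes than the reference and over fewer than the other shallow barcodes.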

How the data were processed

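Single-cell libraries were made from sorted CD4+ T cells with 10x Chromium reagents; the labels name a 5′ kit and the study's methods a 3′ kit. The deposited files hold counts, namely UMI counts per gene and barcode that the authors made with Cell Ranger 3.1.0 on mm10 (32505 barcodes, 31053 genes). No doublet caller was run and no barcode was removed. Library totals were 37325332 (unstimulated WT), 117734032 (stimulated WT) and 106459650 UMIs (stimulated IFT20-KO).

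Selection rule, gene lists and members were chosen with earlier results of these data known. UMIs were summed per population and scaled to 1000000 (CPM). With 1 library per condition, no test was made; intervals are exact 95% (Poisson for levels, binomial for ratios and shares). Genes at 0 were set to a floor of 3 UMIs. List medians and counts used genes of 20 or more CPM, since genes at 0 UMIs lay at the floor under the planned minimum of 10 UMIs. Named genes were the 5 markers, Ift20, list members, the 12 highest and 12 lowest by the ratio nearer to 0 of the 2 libraries, of the same sign in both, and the 5 highest and 5 lowest for IFT20-KO over WT, all among genes with a mean of 20 or more CPM in each library, without mt- genes and receptor segments. Gene positions and lengths came from GENCODE M21 on GRCm38 (mm10), which held 31011 of the 31053 gene IDs of the files. The ratio code was tested on simulated data with 200 changed genes. Python 3.11.15, numpy 2.4.6, scipy 1.17.1 and pandas 2.3.3 were used. Alternatives covered scaling, weighting of barcodes, the limits of both populations and the level minimum; those at 0.25% mt-, at 10% rRNA-derived UMIs and with a reference of 6000 to under 8000 UMIs, as well as the segment measure, were added after values had been seen. The list of Y-linked genes was at 112 against 102 CPM in WT and 137 against 86.5 in IFT20-KO.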

Additional observations from a re-analysis of the deposited data

Results flagged for a closer look

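A total of 3 gene groups had ratios of opposite sign in the 2 stimulated libraries, selected over reference barcodes. ER folding and translocation genes stood at a log2 ratio of -0.18 in WT and 0.39 in IFT20-KO. T cell identity genes stood at -0.25 in WT and 0.0573 in IFT20-KO. Stress and immediate-early genes stood at 0.25 in WT and -0.0443 in IFT20-KO. In each group the opposite sign was lost under at least 1 alternative: T cell identity in IFT20-KO turned negative under 5, stress genes in IFT20-KO turned positive under 2 (0.0286 and 0.12), and ER folding in WT turned positive under 1 (0.0439). With 1 library per genotype the difference was not tested in any of the 3, and genotype and library cannot be told apart.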

How the results depend on the processing

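The log2 ratios of rRNA-derived genes and of replication-dependent histones stayed above 1 in both libraries under every alternative run. For rRNA-derived genes (3.31 in WT, 2.39 in IFT20-KO) the values were 3.36 in WT with mt- and rRNA-derived UMIs left out of the total, 3.40 and 2.17 with median-ratio scaling, 3.41 and 2.44 as means of per-barcode shares, 3.40 and 2.44 thinned to 700 UMIs, 3.65 and 2.57 under 3000 UMIs, 3.56 and 2.48 under 1% mt-, 3.02 in WT from 1500 UMIs, 3.35 and 2.41 with reference mt- under 1.5%, and 3.35 and 2.44 with a reference from 10000 UMIs. Chosen after seeing the data were 3.80 and 2.58 under 0.25% mt-, 2.40 and 1.95 at 0.25% or more, 2.70 and 2.21 without barcodes at 10% rRNA-derived UMIs, and 2.77 and 2.12 with a reference of 6000 to under 8000 UMIs. Histones in WT (2.85) were at 3.09 under 3000 UMIs, 3.15 under 1% mt-, 3.42 under 0.25%, 1.66 at 0.25% or more and 1.89 without the rRNA-rich barcodes, and in IFT20-KO (1.91) at 1.68 with median-ratio scaling, 2.03 thinned, 2.08 under 0.25% mt-, 1.49 at 0.25% or more and 1.68 with the 6000 to under 8000 reference. The 164 genes 2-fold higher in both became 96 with median-ratio scaling, 349 under 3000 UMIs, 106 from 1500 UMIs, 279 at 0.25% mt- or more, 454 at a minimum of 5 CPM and 11 at 100. The 0 genes 2-fold lower became 2 thinned, 1 under 3000 UMIs, 2 under 0.25% mt-, 2 at 0.25% or more, 3 with the 6000 to under 8000 reference and 2 at a minimum of 5. The share of barcodes in WT (1.98%) was 1.72% under 3000 UMIs, 1.72% under 1% mt-, 0.591% from 1500 UMIs and 1.37% under 0.25% mt-, and in IFT20-KO (6.01%) 4.23%, 5.26% and 4.16% for the first, second and last of these.

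Signs turned in smaller ratios. With the 6000 to under 8000 reference these were mitochondrial ribosomal proteins in WT (0.0477), ER folding in WT (0.0439), glycolysis in WT (0.0125), T cell identity in IFT20-KO (-0.0172), naive genes (-0.30 in WT, -0.0254 in IFT20-KO), stress genes in IFT20-KO (0.12), Gm45716 in WT (0.00564) and Rrp9 in WT (0.18). T cell identity in IFT20-KO was also at -0.17 with median-ratio scaling, -0.00823 thinned, -0.00288 under 1% mt- and -0.16 under 0.25%. Activation genes in WT (-0.0321) and stress genes in IFT20-KO (0.0286) turned under 0.25% mt-, splicing factors in IFT20-KO (-0.0812) with median-ratio scaling, Klhl9 in WT (-0.0276) from 1500 UMIs, and the translation factors' median in IFT20-KO when replaced by the mean (0.0111). The cause was not tested. No paired analysis was possible because each condition was 1 library. The selected WT barcodes held 293593 UMIs in all, so that single genes there rested on few UMIs.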
